A study of Rattus norvegicus with 16 samples.

Results

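The neuromuscular junction was compared with fibre away from the junction within the rat tibialis anterior (TA), which lifts the foot, on 8 of the 16 arrays of the series. The members were chosen by sample title and place of capture: 4 arrays labelled TA synapse (TA_synapse) and 4 labelled TA fiber (TA_fiber), with 1 of each under the numbers 15, 25, 27 and 29. The sources do not say what the numbers mean. They are read here as the animals, since the design text names 4 rats, and every within-rat value and the rat block rest on that reading. All 4 animals were untreated as far as the labels say, no genetic change is named, and the sources used here do not give strain, sex or age. The other 8 arrays hold the same regions of the rectus extraocular muscles (EOM) of these rats (EOM_synapse and EOM_fiber, 4 arrays each). They show where TA differed, and they also enter the normalization, the filter and the estimate of spread behind the TA p-values. Per the series' design text, muscles were cut into 10 µm sections, and acetylcholinesterase staining showed where the junctions lay. Around 1000 junctions and as much non-synaptic area were then laser captured per muscle. RNA was amplified in a pair of rounds, with 600 ng of amplified RNA carried into the later round, and hybridised to an Affymetrix rat array. A junction capture holds whatever lies in the section there, so the nerve ending, Schwann cells and connective tissue can contribute RNA. In such bulk captures fewer cells of a type and less RNA per cell cannot be told apart.

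At the mammalian neuromuscular junction the motor axon releases acetylcholine onto a small patch of muscle membrane packed with nicotinic acetylcholine receptors. Nerve-derived agrin binds LRP4 and activates the kinase MuSK, which with DOK7 and rapsyn holds the receptors in place, and the muscle nuclei beneath the nerve transcribe receptor subunit genes while nuclei elsewhere in the fibre keep them low. ETS-family transcription factors, acting through a promoter element called the N-box, and the ERK kinase cascade are known parts of that local transcription, and E-boxes bind the myogenic factors that drive the same genes in development and after denervation.

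The letters of these elements were searched in the promoters of the receptor subunit genes. Of these promoters, 3 are printed because their genes carry the largest receptor changes described below. The sequences run 5′ to 3′ from 250 bases before to 50 bases after the transcription start annotated by RefSeq on build GRCr8. In the Chrne (chr10:55834105-55834404, minus strand) and Chrnd (chr9:95310066-95310365, plus strand) sequences the capitals mark the N-box core, searched as CCGGAA on both strands (TTCCGG on the printed strand for Chrnd). In Chrna1 (chr3:78877304-78877603, minus strand) they mark E-boxes, searched as CANNTG, which reads the same on both strands.
Chrne: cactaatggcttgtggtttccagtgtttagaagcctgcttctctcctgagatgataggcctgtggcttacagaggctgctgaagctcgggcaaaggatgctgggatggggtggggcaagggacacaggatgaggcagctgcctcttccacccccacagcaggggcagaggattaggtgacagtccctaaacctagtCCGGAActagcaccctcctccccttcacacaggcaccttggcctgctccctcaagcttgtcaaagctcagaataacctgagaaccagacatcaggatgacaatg
Chrnd: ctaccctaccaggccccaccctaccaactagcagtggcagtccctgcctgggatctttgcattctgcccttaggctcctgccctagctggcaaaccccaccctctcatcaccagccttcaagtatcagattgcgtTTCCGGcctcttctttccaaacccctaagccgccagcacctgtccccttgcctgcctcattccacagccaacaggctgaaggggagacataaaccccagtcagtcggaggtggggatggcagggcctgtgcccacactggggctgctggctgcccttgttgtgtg
Chrna1: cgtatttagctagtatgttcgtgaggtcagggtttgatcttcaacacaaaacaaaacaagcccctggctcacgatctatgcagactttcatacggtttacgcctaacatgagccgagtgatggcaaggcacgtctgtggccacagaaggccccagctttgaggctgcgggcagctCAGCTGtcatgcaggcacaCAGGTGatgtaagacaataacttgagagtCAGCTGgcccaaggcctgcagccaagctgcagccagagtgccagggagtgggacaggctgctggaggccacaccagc
The N-box core began 54 bases before the start in Chrne and 115 bases before it in Chrnd, and these letters are not in the window of Chrna1, Chrnb1 or Chrng. The Chrna1 window held 3 E-boxes, and the Chrne and Chrnd windows 1 each. Of 27457 rat promoters of the same length, 15.8% held CCGGAA and 71.6% held CANNTG. Among those of the 8701 genes tested on the arrays the shares were 28.3% and 62.7%. A match is a description of the letters and not of binding.

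Values are quantile-normalized log2(intensity + 16), so 4 is the floor, and the 4 values of a group are given in the order of rats 15, 25, 27 and 29. Differences are TA_synapse minus TA_fiber on that log2 scale ± SE from limma, and they understate the change of dim genes. A gene is said to have risen or fallen where its limma p-value, Benjamini-Hochberg adjusted over all 10416 genes tested, was under 0.05. The trimmed mean intensity was 150.06 to 150.08 on the 16 arrays, and the medians of the 8 TA arrays ran from 33.33 to 53.08. The 3′ to 5′ ratio of the Gapdh control was 7.84 to 19 on the TA_synapse arrays and 10.5 to 15.4 on the TA_fiber arrays. A pair of arrays stood apart: TA_fiber 25 (median 51.39) correlated with its group at 0.882 to 0.888 and TA_synapse 27 (median 53.08) at 0.885 to 0.895, while other pairs within these groups reached 0.93 and 0.947. Counts are therefore also given without both arrays, a choice made after seeing the data. No transcript count stands behind an intensity, so the number of arrays limits the precision.

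TA junctions differed from TA fibre in 1066 of 10416 genes (10.2%), of which 698 (6.7% of those tested) rose and 368 (3.53%) fell. The rises were the larger changes. More than 4 log2 units separated the regions for 27 genes that rose and 0 that fell, and more than 2 units for 162 that rose and 6 that fell. The sign was the same in all 4 rats for 685 of the rises and 364 of the falls. Separately from the test, all 4 junction values lay above all 4 fibre values for 794 genes (7.62%) and below them for 584 (5.61%). The median difference over all genes was -0.0127. Without TA_fiber 25 and TA_synapse 27, 696 genes were called, 492 higher and 204 lower. Leaving out 1 TA array or 1 rat gave 468 to 608 rises. Without 1 EOM array the total was 985 to 1202 genes. The other leave-out counts and calls for TA given here and below cover only TA arrays and rats. The falls were fewer by over 1.5 times in several cases: 236 without TA_fiber 15, 175 without TA_fiber 27, 198 without TA_fiber 29, 229 without TA_synapse 15, 187 without TA_synapse 25, 168 without rat 15, 180 without rat 25, 118 without rat 27, 121 without rat 29. The total moved that far with 646 without rat 15, 648 without rat 25, 586 without rat 27, 598 without rat 29. A fit to only the 8 TA arrays called 444 rises and 162 falls.

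**Figure D1:**
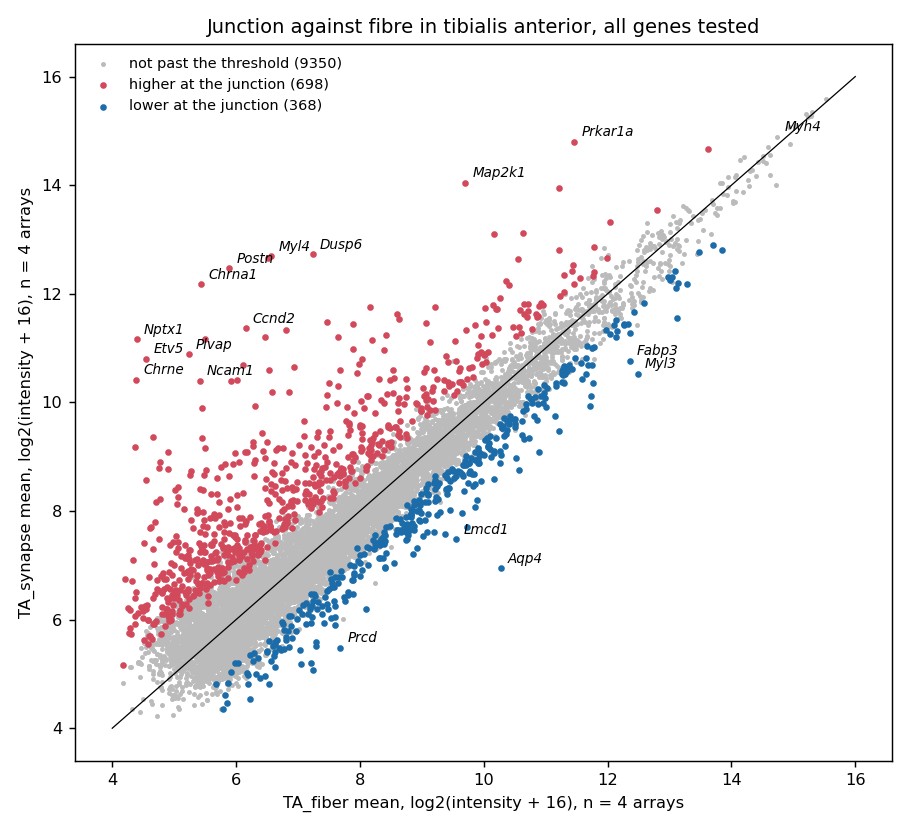
Mean log2(intensity + 16) of each of the 10416 genes tested in TA_fiber (x axis) and TA_synapse (y axis), 4 arrays each, with the line of equal values. Red points are the 698 genes that rose at the junction and blue points the 368 that fell. Nptx1, Chrna1, Postn and Etv5 lie farthest above the line and Aqp4 farthest below it.

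Schwann cell markers were higher at the junction. Of 10 Schwann cell markers tested (8 of the 18 listed had no named probe set or were below the filter), 8 rose and 0 fell, with a median difference of 1.79. Of all genes tested, 6.7% rose. The summed intensity of the Schwann cell markers was 7200 to 9127 in TA_synapse and 1922 to 2791 in TA_fiber. Pmp22, a myelin protein gene, was at 11.54, 11.07, 11.92 and 11.98 in TA_synapse and 8.13, 8.3, 8.83 and 9.1 in TA_fiber. All 4 junction values lay above all 4 fibre values (difference 3.03 ± 0.23, limma adjusted p = 1.12e-06). Mbp, myelin basic protein, differed by 3.09 ± 0.36 (adjusted p = 7.21e-05), although its other probe sets differed by 0.69 and 0.36 and did not pass. S100b, a calcium-binding protein of Schwann cells, stood at 7.88, 7.56, 8.37 and 8.08 against 5.12, 6.23, 4.44 and 6.1. Its groups did not overlap either (difference 2.5 ± 0.32, adjusted p = 0.000157). Egr2, the transcription factor of myelination, differed by 2.66 ± 0.29 and Prx, periaxin, by 2.26 ± 0.57 (adjusted p = 3.57e-05 and 0.0205). The call of Prx was lost without TA_fiber 15, TA_synapse 15 or 29 or rat 15, 25 or 27 (adjusted p = 0.0584 to 0.0972). Without TA_fiber 25 and TA_synapse 27, 7 markers rose.

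Connective tissue markers rose as well. Of 25 fibroblast and extracellular matrix genes tested, 14 rose (6.7% of all genes did) and 0 fell. The median was 1.41, and 14 rose without TA_fiber 25 and TA_synapse 27. The summed intensity was 22980 to 39600 in TA_synapse and 5219 to 12410 in TA_fiber. Pdgfra, the receptor that marks fibro-adipogenic cells, was at 10.09, 10.49, 10.84 and 11.38 at the junction and 7.57, 7.7, 8.17 and 8.5 in fibre. The groups were apart (difference 2.72 ± 0.22, limma adjusted p = 2.34e-06). Lum, the collagen-binding proteoglycan lumican, differed by 3.55 ± 0.29 and Col6a3, a collagen VI chain of the fibre surface, by 2.95 ± 0.3 (adjusted p = 2.89e-06 and 1.95e-05). Col1a2, a fibrillar collagen chain, stood at 10.27, 9.93, 11.88 and 11.75 against 7.58, 6.76, 9.37 and 9.86. Rats 27 and 29 were higher than rats 15 and 25 in both regions, and the junction was higher within each rat (difference 2.56 ± 0.27, adjusted p = 3.43e-05).

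Few axon and vessel markers passed the test in the upward direction. Only 5 of 17 genes of neurons and axons were bright enough to test, and Snap25, Syt1, Syn1, Chat, Slc18a3 and Slc5a7, which define the motor nerve ending, were below it. The median difference of the 5 was 0.852, and within rats 15, 25, 27 and 29 it was 1.43, 0.826, -0.0215 and 0.55. Gap43, a growth cone protein that Schwann cells can also make, was the only one of the 5 to rise (background 6.7% of genes). It was at 6.27, 5.48, 6.44 and 6.59 against 4.35, 4.39, 4.8 and 5.93. The groups overlapped at rat 25's junction value and rat 29's fibre value (difference 1.33 ± 0.23, limma adjusted p = 0.0018). Of 17 endothelial genes, 1 rose and 5 fell (background 6.7% and 3.53% of genes), with a median of -0.467. The differences of 15 of the 17 were below 0. The summed intensity was 3547 to 4995 in TA_synapse and 3554 to 4102 in TA_fiber. That sum includes Plvap, which rose by 5.65 on the log2 scale, so it does not describe the other endothelial genes. The falls were in Sox17, an arterial transcription factor (-1.19 ± 0.31, limma adjusted p = 0.0251), the water channel Aqp1, the adhesion molecule Esam, Emcn and the VEGF receptor Kdr, of which Kdr was named after its value was seen. These other 4 differed by -0.94, -0.93, -0.8 and -0.76. Fewer endothelial falls were counted when arrays were left out: 0 without rat 25 or 29, 1 without TA_fiber 25, TA_synapse 25 or rat 27, 2 without TA_fiber 27 or 29, TA_synapse 27, 3 without TA_fiber 15, TA_synapse 29 or rat 15, and 1 without TA_fiber 25 and TA_synapse 27. The count was 1 median-centred and 3 in the fit to only the 8 TA arrays. The call of Sox17 was lost without TA_fiber 25, 27 or 29, TA_synapse 25 or 27 or rat 15, 25, 27 or 29 (adjusted p = 0.0527 to 0.123). The gene that rose, Plvap, a protein of endothelial diaphragms, is described below. Among 14 smooth muscle and pericyte genes 1 rose and 2 fell. The background was 6.7% of genes for rises and 3.53% for falls, so the rise is near the share of all genes. Mcam rose (difference 1.84 ± 0.29, limma adjusted p = 0.000907). Pdgfrb (-1.03) and Rgs5 (-0.92) fell, with adjusted p = 0.0287 and 0.0228. The count of these falls was 1 without the pair that stood apart, 1 median-centred, 1 without the rat block, 1 in the fit to only the 8 TA arrays, and 0 without TA_fiber 27 or 29, TA_synapse 25 or 27 or rat 27 or 29, 1 without TA_fiber 15 or 25 or rat 25. Pdgfrb went from -1.03 to -0.13 with another choice of probe set, and its call was lost in 16 of the 25 other settings tried. Of 6 erythrocyte genes 3 were tested, all with differences below 0 (median -1), and 1 fell: Alas2, the heme enzyme of red cell precursors (difference -1.2 ± 0.28, adjusted p = 0.0153). Its call was lost without TA_fiber 27, TA_synapse 27 or rat 15, 25 or 27 (adjusted p = 0.0502 to 0.119) and without TA_fiber 25 and TA_synapse 27. Alas2 lay above the array median on 0 TA_synapse and 4 TA_fiber arrays and was not tested with the filter at 8 arrays. The summed intensity of the erythrocyte list was 194.9 to 852.7 in TA_synapse and 541 to 1189 in TA_fiber, and its part in the endothelial falls was not tested. Of 12 macrophage and immune genes and 5 adipocyte genes, limma called 0, and 1 of each list had an unadjusted p under 0.05. What part Schwann and connective tissue RNA had in any gene below was not tested.

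**Figure D2:**
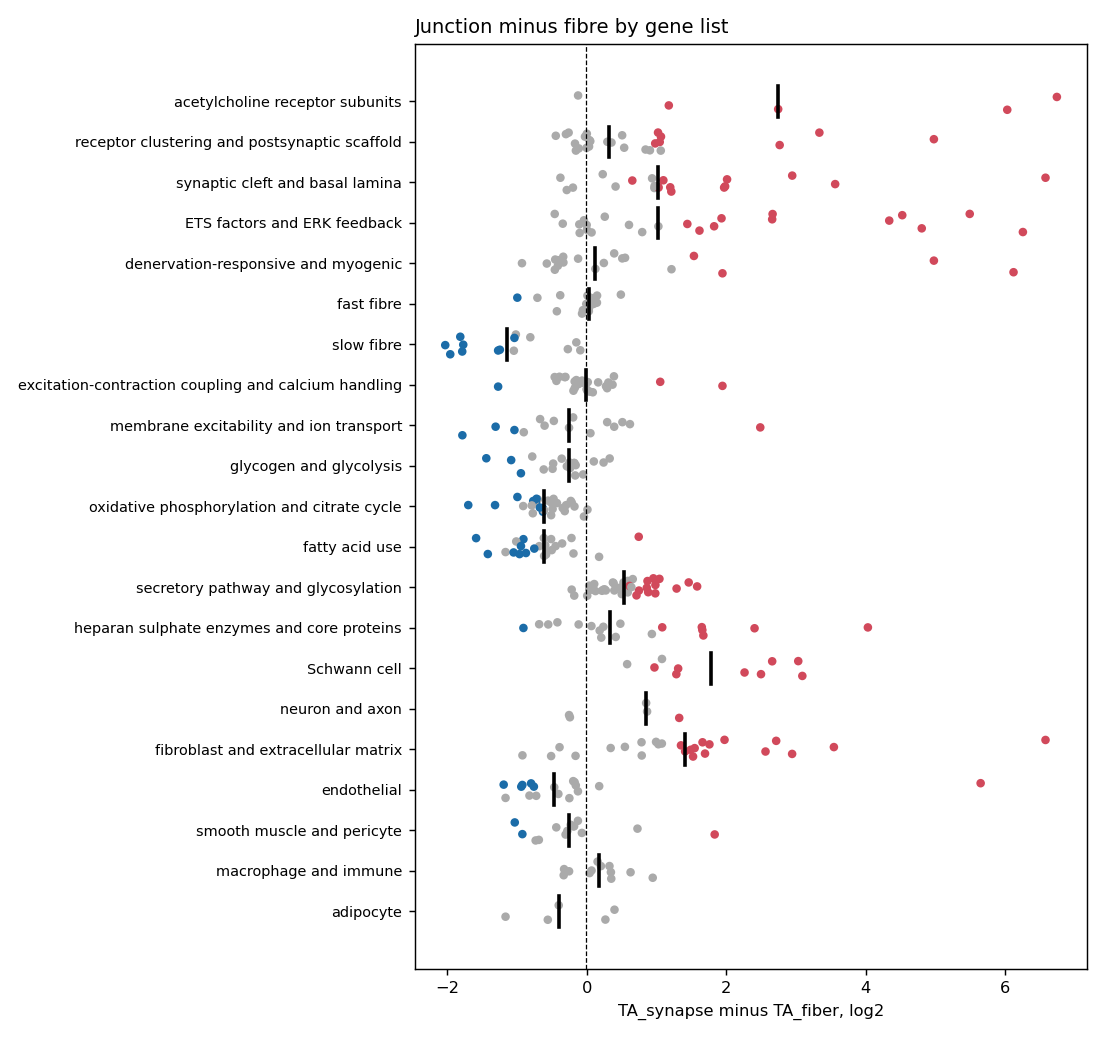
TA_synapse minus TA_fiber on the log2 scale for each tested gene of the lists with at least 5 tested members, 1 row a list. Red points rose, blue points fell, grey points did not pass the threshold, black bars are list medians and the dashed line is the median of all genes (-0.0127). The receptor subunit and Schwann cell rows have the highest medians (2.75 and 1.79) and the slow fibre row the lowest of those shown (-1.15).

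Among the acetylcholine receptor subunits, 4 of 5 rose at the TA junction (background 6.7% of genes) and the embryonic gamma subunit did not. Chrna1, the subunit that carries most of the acetylcholine binding site, was at 12.37, 11.93, 12.12 and 12.31 in TA_synapse and 5.6, 4.16, 6.55 and 5.43 in TA_fiber. The junction arrays were close together and high, and the fibre arrays spread from near the floor in rat 25 upwards (difference 6.75 ± 0.32, limma adjusted p = 2.19e-08). Chrne, the adult-specific epsilon subunit, stood at 10.67, 10.41, 9.92 and 10.67 against 4.37, 4.45, 4.44 and 4.29. Its fibre values were all near the floor of 4, with no fibre array above its array median (difference 6.03 ± 0.32, adjusted p = 4.77e-08). Chrnd, the delta subunit, was at 9.21, 8.43, 8.49 and 8.43 against 6.28, 5.08, 6.43 and 5.77. Rat 15 had the highest junction value, and the groups were apart (difference 2.75 ± 0.3, adjusted p = 3.58e-05). Chrnb1, the beta subunit, was at 8.84, 9.21, 9.36 and 8.76 against 7.89, 8.03, 7.81 and 7.73, a smaller step than in the other subunits that rose. Its groups did not overlap (difference 1.18 ± 0.19, adjusted p = 0.00101), but a test against a minimum difference of 1 did not call it (adjusted p = 1). Chrng, the gamma subunit of embryonic and denervated muscle, was at 4.5, 5.98, 4.93 and 4.55 at the junction and 4.87, 5.72, 5.3 and 4.58 in fibre. The groups overlapped almost fully (difference -0.12 ± 0.34, adjusted p = 0.881). The 4 rises were called in every leave-out of 1 TA array or 1 rat and without the pair that stood apart. Within each rat the list's median difference was 2.93, 3.34, 2.06 and 2.66 for rats 15, 25, 27 and 29.

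**Figure D3:**
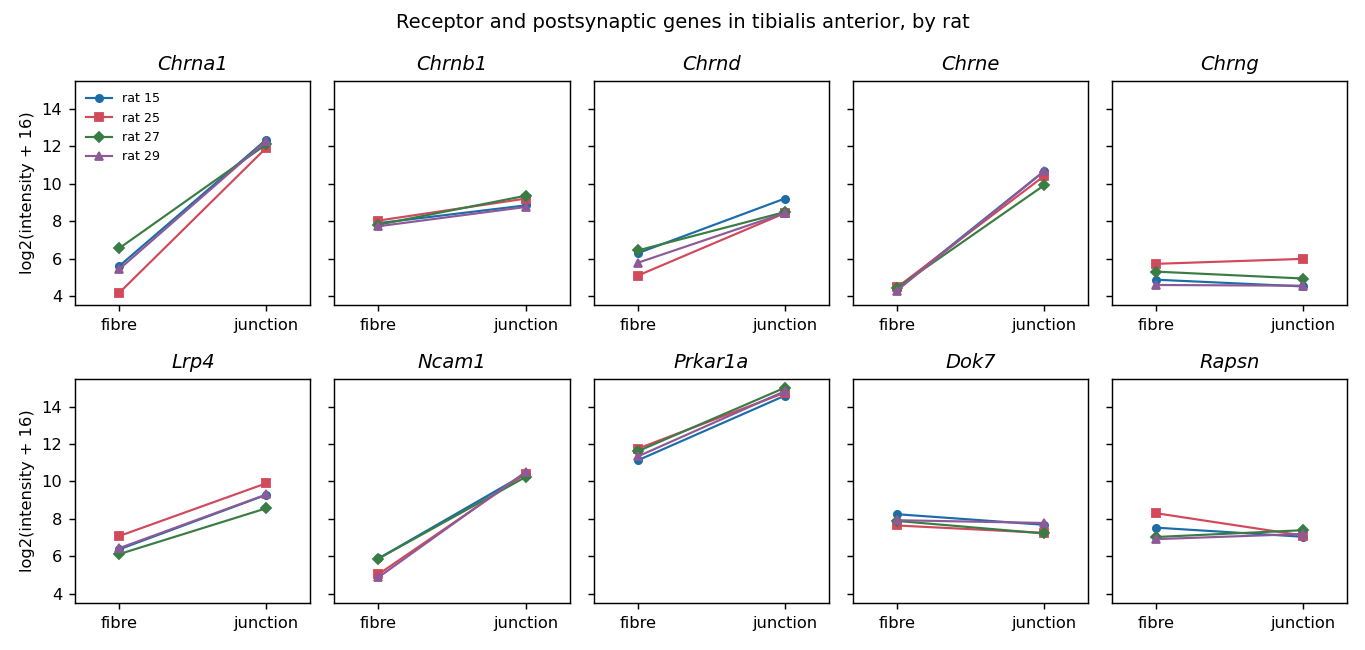
Log2(intensity + 16) in fibre and at the junction of tibialis anterior for 5 receptor subunit genes and 5 genes of receptor clustering and postsynaptic scaffold, with 1 line for each of the 4 rats. Lines for Chrna1, Chrne and Ncam1 climb steeply in every rat. Those for Chrng and Rapsn run both up and down, and those for Dok7 slope slightly down.

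The clustering and scaffold genes did not move as a block: 7 of 26 tested rose (background 6.7% of genes) and 0 fell, with a median of 0.325. Lrp4, the agrin receptor, was at 9.29, 9.91, 8.57 and 9.3 at the junction and 6.37, 7.08, 6.11 and 6.43 in fibre. Rat 27 was lowest in both regions and the groups were well apart (difference 2.77 ± 0.22, limma adjusted p = 2.34e-06). Prkar1a, a regulatory subunit of protein kinase A, was at 14.59, 14.75, 15.02 and 14.83 against 11.13, 11.76, 11.62 and 11.34. No overlap was seen (difference 3.34 ± 0.19, adjusted p = 9.02e-08), and its other probe sets differed by 4.47 and 5.74. Ncam1, the neural cell adhesion molecule that muscle gathers at the junction, stood at 10.41, 10.43, 10.24 and 10.51 against 5.88, 5.04, 5.87 and 4.87, with junction values close together (difference 4.98 ± 0.26, adjusted p = 4.31e-08). A second Ncam1 probe set differed by 0.35 and did not pass. Ank3, ankyrin G of the junctional folds, differed by 1.06 ± 0.19 (adjusted p = 0.00255), with 0.36 and 0.31 at its other probe sets. Utrn, utrophin, which replaces dystrophin at the fold crests, differed by 1.05 ± 0.26 (adjusted p = 0.0216), a call lost without TA_fiber 25 or 29, TA_synapse 15 or 25 or rat 25, 27 or 29 (adjusted p = 0.0621 to 0.117).

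Several genes that hold the receptor in its cluster did not pass the test or lay below the filter. Rapsn, the receptor's scaffold rapsyn, was at 7.04, 7.1, 7.39 and 7.19 in TA_synapse and 7.53, 8.3, 7.03 and 6.91 in TA_fiber, and the sign differed between rats (difference -0.26 ± 0.25, limma adjusted p = 0.588). Dok7, the MuSK adaptor, was at 7.68, 7.25, 7.22 and 7.78 against 8.25, 7.64, 7.89 and 7.93. The junction was lower within each rat, and the groups overlapped (difference -0.45 ± 0.2, adjusted p = 0.207). Agrn, agrin, made by nerve and muscle, was at 7.92, 7.68, 7.94 and 8.74 against 7.21, 6.0, 7.69 and 7.75. Rat 25's fibre value was the lowest, and the groups overlapped (difference 0.91 ± 0.3, adjusted p = 0.0746). Musk lay below the filter, at 5.23, 5.73, 5.47 and 5.18 at the junction and 4.30, 5.10, 4.53 and 4.16 in fibre. These values lie under the array medians, so no test was made. Scn4a, the sodium channel of muscle, and Erbb3, a neuregulin receptor, were also below it, and Ache, acetylcholinesterase, had no named probe set. Without TA_fiber 25 and TA_synapse 27, 5 genes of the list rose, and 4 without rat 27.

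In the synaptic cleft, 12 of 20 genes rose (background 6.7% of genes) and 0 fell, with a median of 1.03. Colq, the collagen tail that anchors acetylcholinesterase, was at 9.0, 9.04, 9.34 and 8.96 at the junction and 6.59, 7.18, 4.65 and 6.12 in fibre. Junction values were close together, fibre values were not, and the groups were apart (difference 2.95 ± 0.42, limma adjusted p = 0.000429). Lama2, the laminin alpha 2 chain of the muscle basal lamina, was at 11.45, 11.28, 11.46 and 11.6 against 7.91, 6.85, 8.22 and 8.56. The junction values were tight and far above those of fibre (difference 3.56 ± 0.27, adjusted p = 1.05e-06). Lamb1, a laminin beta chain, differed by 2.01 ± 0.27 and Nid1, the laminin linker nidogen, by 1.99 ± 0.24 (adjusted p = 0.000284 and 9.84e-05). A second Nid1 probe set differed by -0.04. Postn, the matricellular protein periostin, was at 12.58, 12.0, 12.55 and 12.74 against 4.81, 4.49, 7.51 and 6.74. The fibre values of rats 15 and 25 were near the floor and those of rats 27 and 29 were not (difference 6.58 ± 0.68, adjusted p = 2.67e-05). Postn belongs to the fibroblast list too, whose summed intensity was 22980 to 39600 in TA_synapse and 5219 to 12410 in TA_fiber. That list's part in the cleft genes was not tested. Counts were 9 to 12 when 1 TA array or rat was left out and 10 without the pair that stood apart.

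The ETS factors and the ERK cascade held several of the steepest changes. Of 23 genes tested 11 rose (background 6.7% of genes) and 0 fell, with a median of 1.03. All 3 members of the PEA3 family of ETS factors rose. Etv5 was at 11.53, 11.04, 10.17 and 10.49 in TA_synapse and 4.69, 4.49, 4.77 and 4.25 in TA_fiber, where it was near the floor in each rat (difference 6.26 ± 0.36, limma adjusted p = 9.02e-08). A second Etv5 probe set differed by 2.05. Etv4 was at 9.48, 9.18, 9.06 and 8.98 against 5.09, 4.15, 4.12 and 4.1. The fibre value of rat 15 stood above the others, and the groups remained far apart (difference 4.81 ± 0.25, adjusted p = 3.86e-08). Etv1 was at 11.09, 11.53, 11.64 and 11.1 against 6.6, 6.31, 7.02 and 7.32, without overlap (difference 4.53 ± 0.22, adjusted p = 3.13e-08). Its other 4 probe sets differed by 1.26 to 2.26. Gabpa, an ETS factor known to bind the N-box, was at 8.38, 8.57, 7.0 and 8.15 against 8.27, 7.64, 7.94 and 8.27. No direction was seen, and the sign of its difference depended on the processing (difference -0.00187 ± 0.33, adjusted p = 0.998).

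The other 8 that rose were Map2k1, the feedback genes Dusp5, Dusp6, Spry1, Spry2 and Spry4, and the early response genes Egr1 and Egr2. Map2k1, the kinase MEK1 that activates ERK, was at 13.95, 14.23, 14.08 and 13.91 at the junction and 9.51, 9.8, 9.94 and 9.56 in fibre. There was little spread in either region and no overlap (difference 4.34 ± 0.2, limma adjusted p = 2.19e-08). Dusp6, the phosphatase that switches ERK off and is itself an ERK target, was at 12.38, 12.81, 13.07 and 12.68 against 7.41, 7.17, 6.74 and 7.63. The groups lay far apart (difference 5.5 ± 0.26, adjusted p = 2.19e-08), and its other probe sets differed by 4.52 and 4.17. Egr2 belongs to the Schwann cell list too. The summed intensity of the Schwann cell list was 7200 to 9127 in TA_synapse and 1922 to 2791 in TA_fiber, and its part in these genes was not tested. Counts were 10 to 12 with 1 TA array or rat left out and 9 without the pair that stood apart.

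The denervation-responsive and myogenic genes did not move as a block: 4 of 19 rose (background 6.7% of genes), 0 fell and the median was 0.123. Myl4, the embryonic and atrial myosin light chain, was at 13.21, 12.44, 12.3 and 12.81 at the junction and 6.69, 6.07, 6.94 and 6.56 in fibre, apart in every rat (difference 6.12 ± 0.31, limma adjusted p = 3.86e-08). Runx1, a transcription factor induced by denervation, was at 7.32, 7.37, 7.87 and 7.54 against 6.07, 6.23, 5.34 and 6.3. The groups did not overlap (difference 1.54 ± 0.29, adjusted p = 0.00365), and a second probe set differed by 0.68. Sln, sarcolipin, an inhibitor of the calcium pump, differed by 1.95 ± 0.53 (adjusted p = 0.0318), with fibre values from 4.82 to 7.78. Its call was lost without TA_fiber 25 or 27, TA_synapse 25, 27 or 29 or rat 15, 25 or 27 (adjusted p = 0.0568 to 0.185). Ncam1 is the fourth. The developmental and denervation gene Chrng, as above, did not pass.

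Few contractile genes of fast fibres passed the test, and slow-fibre genes were lower at the junction. Myh4, the fast IIB myosin heavy chain, was at 15.2, 15.02, 14.69 and 14.66 in TA_synapse and 14.79, 14.96, 14.44 and 14.79 in TA_fiber. The groups overlapped (difference 0.15 ± 0.17, limma adjusted p = 0.672), and the sign turned with the values as deposited (-0.35) and median-centred (-0.39). Quantile normalization gives all arrays the same set of values, which limits differences among the brightest genes, Myh4 among them. Of 17 fast-fibre genes 0 rose and 1 fell (background 3.53%), with a median of 0.029 that became -0.376 as deposited and -0.41 median-centred, with 3 and 2 falls, against 0 falls in the fit to only the 8 TA arrays. The 1 that fell as reported was Myh1, the IIX heavy chain, at 12.46, 12.15, 12.47 and 11.35 against 12.91, 13.11, 13.36 and 13.05. Rat 29 had the lowest junction value (difference -1.0 ± 0.23, adjusted p = 0.0125). Its call was lost without TA_fiber 27 or 29, TA_synapse 29 or rat 25 or 29 (adjusted p = 0.0516 to 0.122) and in the fit to only the 8 TA arrays. Myh2, the IIA heavy chain, differed by -0.71 ± 0.25 and Myh7, the slow heavy chain, by -1.05 ± 0.42 (adjusted p = 0.0931 and 0.143), and neither passed.

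Among 14 slow-fibre genes 8 fell (background 3.53% of genes) and 0 rose. All 14 differences were below 0, with a median of -1.15 (-1.33 as deposited and -1.36 median-centred). Myl3, the slow essential light chain, was at 11.24, 10.03, 10.95 and 9.9 at the junction and 13.13, 11.51, 12.65 and 12.66 in fibre. The highest junction value lay under the lowest fibre value (difference -1.96 ± 0.37, limma adjusted p = 0.00384). Myoz2, calsarcin of the slow Z-disc, was at 10.31, 9.69, 10.37 and 9.4 against 12.37, 11, 11.34 and 12.15, also without overlap (difference -1.77 ± 0.31, adjusted p = 0.00205). Ankrd2, a stretch-responsive ankyrin protein of slow muscle, was at 7.47, 7.32, 8.75 and 7.26 against 10.32, 8.79, 10.37 and 9.45. Rat 27's junction value was well above the others and just under the lowest fibre value (difference -2.03 ± 0.43, adjusted p = 0.00812), and the call was lost without rat 15 (adjusted p = 0.0668). Csrp3, muscle LIM protein, differed by -1.82 ± 0.45 and Myl2, the slow regulatory light chain, by -1.79 ± 0.44 (adjusted p = 0.0196 and 0.0191). Both were called less firmly: Csrp3 was lost without TA_fiber 15 or 27, TA_synapse 29 or rat 15, 27 or 29 (adjusted p = 0.05002 to 0.0866), and Myl2 without TA_fiber 15 or 29, TA_synapse 25 or 29 or rat 15 or 29 (adjusted p = 0.0516 to 0.113). A second Myl2 probe set differed by -0.34. The count of slow-fibre falls was 6 without TA_fiber 25 and TA_synapse 27, and it was 3 without TA_fiber 15 or rat 15 or 29, 4 without TA_fiber 27 or 29, TA_synapse 25 or 29 or rat 27, 5 without TA_synapse 27. Within each rat the list's median was -1.16, -1.44, -0.607 and -1.74, below 0 in all 4.

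Part of the oxidative genes fell at the junction. Of 29 oxidative phosphorylation and citrate cycle genes 9 fell (background 3.53% of genes), 0 rose, and 28 differences were below 0, with a median of -0.613. Ppargc1a, the coactivator PGC-1 alpha that drives mitochondrial genes, was at 8.13, 8.14, 9.09 and 8.1 in TA_synapse and 9.23, 9.59, 10.15 and 9.76 in TA_fiber. Rat 27 was highest in both regions, and the groups were apart (difference -1.32 ± 0.26, limma adjusted p = 0.00571). Its call was lost without rat 29 (adjusted p = 0.0675). Cox8b, a cytochrome oxidase subunit of muscle, was at 10.26, 10.34, 11.04 and 11.09 against 11.61, 11.24, 11.97 and 11.9, with no overlap (difference -1.0 ± 0.17, adjusted p = 0.00208). Cox7a1, another subunit, was at 5.75, 6.07, 5.72 and 6.02 against 8.22, 5.37, 8.27 and 8.53. The fibre value of rat 25 lay below every junction value (difference -1.7 ± 0.49, adjusted p = 0.0407), and the call was lost without TA_fiber 15, 27 or 29, TA_synapse 15, 27 or 29 or rat 15, 27 or 29 (adjusted p = 0.0881 to 0.213). The number of falls in this list hung on the arrays used: 1 without rat 29, 2 without TA_fiber 15 or 27, TA_synapse 15 or rat 15 or 27, 3 without TA_synapse 25, 27 or 29, 4 without TA_fiber 29, 5 without rat 25. It was 5 without the pair that stood apart, 2 in the fit to only the 8 TA arrays and 3 without the rat block, but 22 with the values as deposited and 13 median-centred.

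Of 24 fatty acid genes 8 fell and 1 rose, with a median of -0.615. The background was 3.53% of genes for falls and 6.7% for rises, so the rise is no more than the share of all genes. Fabp3, the fatty acid carrier of oxidative muscle, was at 10.95, 9.73, 11.51 and 10.88 at the junction and 12.85, 11.66, 12.3 and 12.6 in fibre. Rat 25 was lowest in both regions and the groups were apart (difference -1.59 ± 0.3, limma adjusted p = 0.00395), with the call lost without rat 15 (adjusted p = 0.0532). Lpl, lipoprotein lipase, was at 10.43, 10.17, 10.81 and 9.99 against 12.16, 11.33, 12.1 and 11.49, without overlap (difference -1.42 ± 0.23, adjusted p = 0.00123). Cpt2, which completes the carnitine shuttle, differed by -1.05 ± 0.24 and Decr1, an enzyme of unsaturated fatty acid oxidation, by -0.94 ± 0.21 (adjusted p = 0.0132 and 0.0115). Cpt2 lost its call without TA_fiber 27, TA_synapse 25 or rat 15 or 27 (adjusted p = 0.0546 to 0.101), and Decr1 without rat 15, 27 or 29 (adjusted p = 0.0553 to 0.0973). The gene that rose, Hadhb of the trifunctional protein, differed by 0.75 ± 0.17 (adjusted p = 0.013) and was named after its value was seen. This call was lost without TA_fiber 25 and TA_synapse 27, without TA_synapse 29 or rat 15, 25 or 29, with the values as deposited or median-centred, without the rat block and in the fit to only the 8 TA arrays. The count of falls was 7 without TA_fiber 25 and TA_synapse 27 and 1 without rat 15, 2 without rat 27, 3 without TA_fiber 27, 4 without TA_synapse 15, 25 or 29 or rat 29. Plin5, which coats lipid droplets beside mitochondria, was at 5.4, 4.13, 5.48 and 5.82 against 7.49, 6.59, 6.99 and 7.8. It was among the largest falls, and its groups did not overlap (difference -2.01 ± 0.32, adjusted p = 0.00105). Slc25a34, a mitochondrial carrier, and Ldhb, the lactate dehydrogenase chain of oxidative tissue, fell by 1.88 and 1.8 on the log2 scale (adjusted p = 0.000467 and 0.00175).

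Glycogen and glycolysis genes moved less: 3 of 19 fell (background 3.53% of genes) and 0 rose. The median was -0.249 (-0.669 as deposited and -0.703 median-centred, with 9 and 4 falls). Fbp2, the muscle fructose bisphosphatase, was at 8.12, 8.45, 7.65 and 7.84 in TA_synapse and 9.34, 10.01, 9.08 and 9.41 in TA_fiber, with no overlap (difference -1.44 ± 0.27, limma adjusted p = 0.00332). Gbe1, the glycogen branching enzyme, differed by -1.09 ± 0.2 (adjusted p = 0.00366), also without overlap. Pdk4, the kinase that shuts off pyruvate dehydrogenase, differed by -0.95 ± 0.22 (adjusted p = 0.015), a call lost without TA_fiber 15, TA_synapse 25 or rat 25, 27 or 29 (adjusted p = 0.0533 to 0.0896) and without the rat block.

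**Figure D4:**
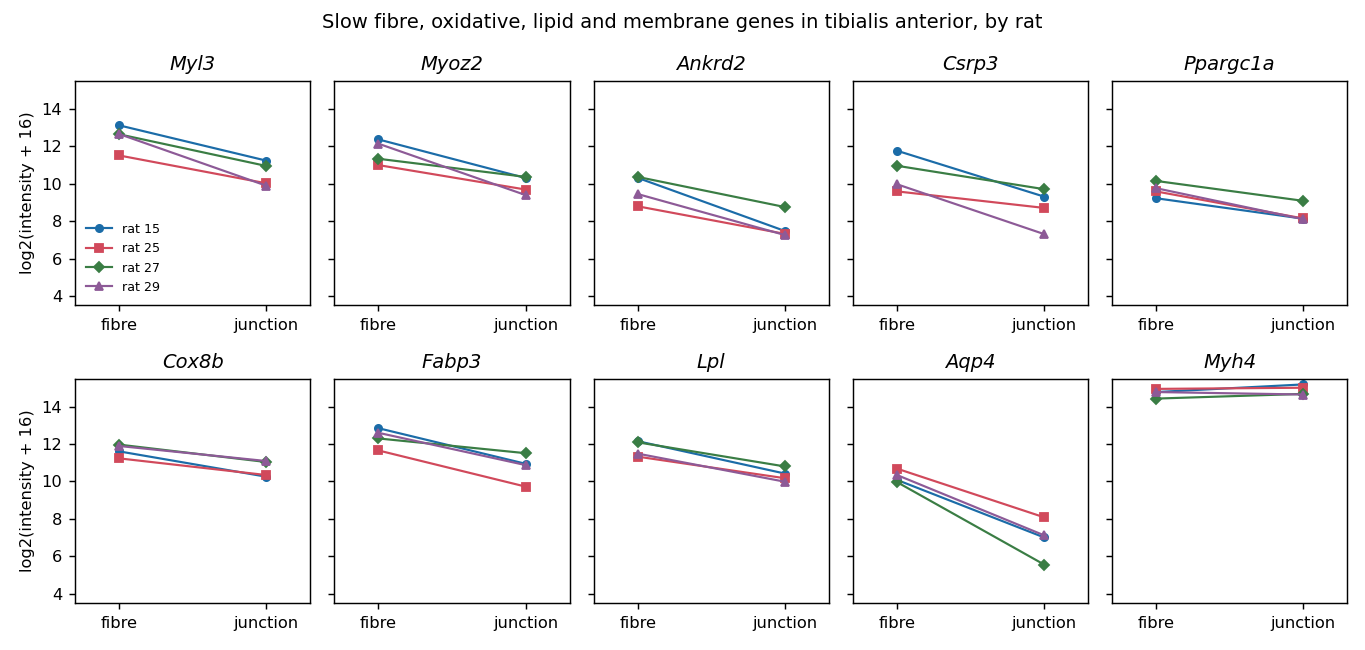
Log2(intensity + 16) in fibre and at the junction of tibialis anterior, 1 line for each of the 4 rats, for slow-fibre genes (Myl3, Myoz2, Ankrd2, Csrp3), oxidative and lipid genes (Ppargc1a, Cox8b, Fabp3, Lpl), the water channel Aqp4 and the fast myosin Myh4. Lines other than those of Myh4 descend in every rat, and the 4 lines of Myh4 run both up and down.

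Most membrane and calcium genes did not pass the test. Aqp4, the water channel of the fast-fibre membrane, had the largest fall of all genes tested, from 10.09, 10.69, 9.97 and 10.35 in TA_fiber to 7.01, 8.08, 5.55 and 7.12 in TA_synapse. The groups did not overlap, and rat 27's junction value was lowest (difference -3.33 ± 0.39, limma adjusted p = 8.44e-05), and a second probe set differed by -2.19. Of 15 genes of excitability and ion transport 1 rose and 3 fell (background 6.7% and 3.53%, so the rise is no more than the share of all genes), with a median of -0.255. Kcnj12, an inward rectifier potassium channel, rose from 7.04, 5.47, 7.01 and 7.03 to 9.84, 9.38, 8.28 and 9.0. Rat 25's fibre value was lowest (difference 2.49 ± 0.39, adjusted p = 0.000866). The falls were Atp1b4 (-1.79 ± 0.47), Slc8a3, a sodium-calcium exchanger (-1.31 ± 0.32), and the potassium channel Kcna5 (-1.04 ± 0.28), with adjusted p = 0.0275, 0.0186 and 0.0321. Their number was 1 without TA_fiber 25 and TA_synapse 27 and 1 without TA_fiber 15, 25 or 29, TA_synapse 25 or 27 or rat 15, 25, 27 or 29. Of 26 genes of excitation-contraction coupling 2 rose and 1 fell, shares near those of all genes (6.7% and 3.53%), with a median of -0.0176 (-0.23 as deposited and -0.264 median-centred). The rises were 1 median-centred, without the rat block, in the fit to only the 8 TA arrays, without the pair that stood apart, and without TA_fiber 25 or 27, TA_synapse 25, 27 or 29 or rat 15, 25 or 27. Fkbp1a, the calstabin that binds the ryanodine receptor, was at 11.9, 12.43, 12.68 and 12.37 against 10.79, 11.22, 11.73 and 11.43, without overlap (difference 1.05 ± 0.18, adjusted p = 0.00199). That call was lost median-centred and with the probe set of largest interquartile range (difference 0.73). Sln is given above. Casq2, cardiac calsequestrin, differed by -1.27 ± 0.33 (adjusted p = 0.0241), and its call was lost without TA_fiber 15, 27 or 29, TA_synapse 15, 25, 27 or 29 or rat 15, 27 or 29 (adjusted p = 0.055 to 0.147), without the rat block and with the mean of its probe sets. Its second probe set differed by -0.2 and did not pass.

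Of 37 genes of the secretory pathway, which makes membrane and secreted proteins, 14 rose (background 6.7% of genes) and 0 fell (median 0.527). Hspa5, the endoplasmic reticulum chaperone BiP, was at 12.98, 12.64, 12.75 and 12.82 at the junction and 11.53, 11.33, 10.92 and 11.07 in fibre, without overlap (difference 1.58 ± 0.23, limma adjusted p = 0.000449). Pdia6, a disulphide isomerase, differed by 1.46 ± 0.18 (adjusted p = 0.000112), and Pdia4 by 0.99 ± 0.22, a call lost without rat 15, 27 or 29 (adjusted p = 0.0536 to 0.0751). Secreting cells of the connective tissue also use this pathway, and the summed intensity of the fibroblast list is given above. Its part here was not tested. The count was 11 without the pair that stood apart, 5 in the fit to only the 8 TA arrays, 9 median-centred, and 3 without rat 29, 5 without rat 15 or 27, 7 without TA_fiber 27 or 29, TA_synapse 15 or 25, 8 without rat 25, 9 without TA_fiber 25, TA_synapse 29.

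Of 18 genes for heparan sulphate proteoglycans, which hold agrin and growth factors in the basal lamina, 6 rose and 1 fell (median 0.326). The background was 6.7% of genes for rises and 3.53% for falls, and 1 fall of 18 is near that share. Hs6st2, which adds 6-O sulphate, was at 8.15, 9.73, 9.13 and 8.15 in TA_synapse and 4.23, 4.35, 5.47 and 4.98 in TA_fiber. Rats 25 and 27 were highest at the junction and the groups were far apart (difference 4.03 ± 0.29, limma adjusted p = 8.14e-07). Gpc4, a glypican, was at 12.14, 11.76, 11.07 and 10.9 against 9.01, 8.93, 9.02 and 9.29. Fibre values were tight and junction values were not (difference 2.41 ± 0.27, adjusted p = 4.85e-05). Gpc3 differed by 1.67 ± 0.3 and the syndecan Sdc2 by 1.66 ± 0.18 (adjusted p = 0.00283 and 4.33e-05). The gene that fell, Gpc1, another glypican, differed by -0.91 ± 0.2 (adjusted p = 0.00965) and was named after its value was seen. The call for Gpc1 was lost without rat 15, 27 or 29. The count of rises was 4 to 7 with 1 TA array or rat left out and 5 without the pair that stood apart.

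Several of the largest rises lay outside these lists. Nptx1, a secreted neuronal pentraxin that clusters glutamate receptors in brain, was at 11.97, 12.95, 11.36 and 8.39 at the TA junction and 4.14, 4.29, 4.32 and 4.83 in fibre. Rat 29 was far lower at the junction than the other rats, and the groups stayed apart (difference 6.77 ± 0.67, limma adjusted p = 1.63e-05). Map3k7cl stood at 12.84, 12.24, 12.79 and 12.8 against 6.57, 5.5, 7.01 and 6.96, with tight junction values (difference 6.16 ± 0.27, adjusted p = 2.19e-08). Calml4, a calmodulin-like protein, was at 11.35, 10.42, 11.23 and 11.68 against 6.06, 4.26, 6.08 and 5.6. Rat 25 was lowest in both regions (difference 5.67 ± 0.39, adjusted p = 4.67e-07). Plvap was at 11.02, 10.96, 11.14 and 10.44 against 4.96, 4.99, 5.96 and 5.04, with rat 27's fibre value above the others. It rose (difference 5.65 ± 0.37, adjusted p = 3.55e-07), while the endothelial list had a median of -0.467. Ccnd2, cyclin D2, was at 11.54, 11.38, 10.92 and 11.62 against 5.54, 5.78, 6.75 and 6.55, and the groups were far apart (difference 5.21 ± 0.29, adjusted p = 6.97e-08). Phldb2, the LL5 beta protein that tethers microtubules beneath receptor clusters, was at 11.26, 11.12, 11.44 and 11.01 against 6.24, 5.62, 7.08 and 6.94. All its junction values exceeded its fibre values (difference 4.73 ± 0.26, adjusted p = 7.44e-08), and a second probe set differed by 2.81. Matn2, an adhesive matrix protein, was at 8.45, 9.01, 10.0 and 9.97 against 4.39, 4.32, 4.48 and 5.45. Rats 27 and 29 were higher than rats 15 and 25 at the junction (difference 4.69 ± 0.3, adjusted p = 2.65e-07).

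Further falls were smaller in size than the largest rises described above. Lmcd1, a LIM protein and calcineurin regulator of muscle, was at 7.95, 6.89, 7.75 and 7.32 in TA_synapse and 10.16, 8.56, 9.91 and 9.6 in TA_fiber. The groups did not overlap, with rat 25 lowest in both (difference -2.08 ± 0.27, limma adjusted p = 0.00018). Prcd, known from photoreceptor discs, differed by -2.2 ± 0.35 and the unnamed locus LOC100909739 by -2.17 ± 0.27 (adjusted p = 0.000931 and 0.000121). Cd24, a small surface glycoprotein, was at 8.92, 8.9, 7.42 and 7.02 against 10.29, 10.21, 9.63 and 9.33. Rats 27 and 29 were low at the junction (difference -1.8 ± 0.38, adjusted p = 0.00775), and the call was lost without rat 27 (adjusted p = 0.0765) and without TA_fiber 25 and TA_synapse 27. Gja3, a connexin, differed by -1.9 ± 0.46 (adjusted p = 0.0169), a call lost without TA_fiber 25, TA_synapse 29 or rat 25 or 29 (adjusted p = 0.0536 to 0.0927). Cd55, a membrane inhibitor of complement, was at 8.21, 8.62, 6.37 and 8.09 against 9.09, 9.53, 8.59 and 8.68. Rat 27's junction value was the lowest (difference -1.15 ± 0.33, adjusted p = 0.0401), and the call was lost without TA_fiber 15, 25 or 27, TA_synapse 25, 27 or 29 or rat 15, 25, 27 or 29 (adjusted p = 0.0585 to 0.213), without the rat block, with the random block and in the fit to only the 8 TA arrays.

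The junction effect of TA differed from that of EOM for 96 of 10416 genes (0.922%), by the test of the difference itself. EOM alone had 585 rises (5.62%) and 470 falls (4.51%). Of the 96, 69 (0.662% of genes tested) had the higher effect in TA and 27 (0.259%) the lower. Nptx1 had the largest difference. In EOM it was at 6.25, 6.03, 5.49 and 5.88 at the junction and 5.66, 5.28, 5.22 and 6.4 in fibre, with the groups overlapping (TA minus EOM 6.5 ± 0.94, limma adjusted p = 0.00478). This call was lost without rat 15 or 27 (adjusted p = 0.0745 to 0.0916). Calml4 was at 5.79, 5.46, 6.06 and 4.75 in EOM_synapse and 4.33, 5.28, 6.02 and 5.11 in EOM_fiber, again overlapping (TA minus EOM 5.34 ± 0.55, adjusted p = 0.00027). Cacna2d3, an auxiliary calcium channel subunit, rose at the TA junction, from 6.06, 5.57, 4.39 and 5.79 to 10.1, 9.72, 9.66 and 10.09. In EOM its effect was -0.34 (TA minus EOM 4.78 ± 0.36, adjusted p = 1.72e-05). Gmfg, a regulator of actin branching, went from 7.43, 7.61, 7.29 and 7.54 in TA_fiber to 10.78, 12.35, 11.32 and 11.47 in TA_synapse, with an EOM effect of -0.68 (TA minus EOM 4.69 ± 0.36, adjusted p = 1.72e-05). Klkb1, plasma prekallikrein, went from 4.75, 4.37, 4.21 and 4.86 to 9.66, 9.98, 6.74 and 7.88, and its EOM_synapse values were at 4.11, 4.12, 4.12 and 4.11, near the floor (TA minus EOM 4.35 ± 0.69, adjusted p = 0.00743). Its call was lost without rat 15, 25 or 29 (adjusted p = 0.0536 to 0.0916). Klkb1 lay above the array median on 4 TA_synapse and 0 TA_fiber arrays, and it was not tested with the filter at 8 arrays. Map3k7cl and Ccnd2 rose in both muscles, by 6.16 and 5.21 in TA and 1.67 and 1.54 in EOM (TA minus EOM 4.49 ± 0.39 and 3.67 ± 0.41, adjusted p = 4.11e-05 and 0.000486).

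Synaptic genes with a larger step in TA were Chrna1, Etv4, Lama2 and Lrp4. The junction means in TA and EOM were 12.18 and 12.81 for Chrna1, 11.45 and 11.35 for Lama2, and 9.27 and 9.09 for Lrp4. Their fibre means were 5.43 and 8.96, 7.88 and 9.56, and 6.5 and 8.07, so these muscles lay further apart in fibre than at the junction. Etv4 was at 9.17 and 6.36 at the junction and 4.37 and 4.44 in fibre. The TA and EOM effects were 6.75 and 3.85 for Chrna1, 4.81 and 1.92 for Etv4, 3.56 and 1.78 for Lama2, and 2.77 and 1.02 for Lrp4 (limma adjusted p of the difference 0.00698, 0.0011, 0.0407 and 0.0175). The difference of Chrna1 was lost without rat 15 or 29 (adjusted p = 0.0576 to 0.0994), that of Lrp4 without EOM_synapse 29, TA_synapse 15 or 29 or rat 15, 25, 27 or 29 (adjusted p = 0.0502 to 0.161), and that of Lama2 in 25 of 33 settings, every rat left out among them, without EOM_fiber 15, 25 or 27, TA_fiber 15, 25 or 27, EOM_synapse 15, 25, 27 or 29, TA_synapse 15, 25 or 29 or rat 15, 25, 27 or 29 (adjusted p = 0.0501 to 0.194). Chrne did not differ past the threshold, with 6.03 in TA and 6.36 in EOM (difference -0.33 ± 0.45, adjusted p = 0.858). Car3, the carbonic anhydrase of slow muscle, did not pass in TA, at 14.17, 14.17, 14.23 and 14.06 at the junction and 13.98, 13.5, 14.08 and 14.2 in fibre, and fell by 4.50 on the log2 scale in EOM (TA minus EOM 4.72 ± 0.39, adjusted p = 3.54e-05). The 8 named genes with the lower effect in TA all rose at the EOM junction, and in TA none of them rose and 2 fell. Prom2, a membrane protrusion protein, fell in TA, at 6.12, 5.68, 5.4 and 5.01 against 6.83, 6.55, 6.72 and 6.43, and rose by 3.21 in EOM (TA minus EOM -4.29 ± 0.29, adjusted p = 8.58e-06). Rcan2, a calcineurin inhibitor, likewise fell by 1.35 in TA and rose by 1.25 in EOM, a difference lost without rat 27 or 29 (adjusted p = 0.0536 to 0.0721). The other 6 were Kcnip3, Slc24a2, Septin6, Fgf12, Tpbg and Lix1, with TA effects from -0.97 to 0.13 and EOM effects from 2.22 to 3.64. Each of these 6 lost the difference in 5 to 14 of the settings. Of them, Kcnip3, Septin6, Fgf12, Tpbg and Lix1 were not tested with the filter at 8 arrays, since too few of their arrays lay above the median. Without TA_fiber 25 and TA_synapse 27, 60 genes differed between the muscles. With 1 array or rat left out the count was 62 without EOM_fiber 25, 63 without EOM_synapse 25, 56 without EOM_synapse 27, 58 without EOM_synapse 29, 61 without TA_synapse 15, 58 without TA_synapse 29, 33 without rat 15, 33 without rat 25, 25 without rat 27, 32 without rat 29. The calls of Cacna2d3, Calml4, Car3, Ccnd2, Gmfg, Map3k7cl and Prom2 were kept in all 33 settings tried.

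**Figure D5:**
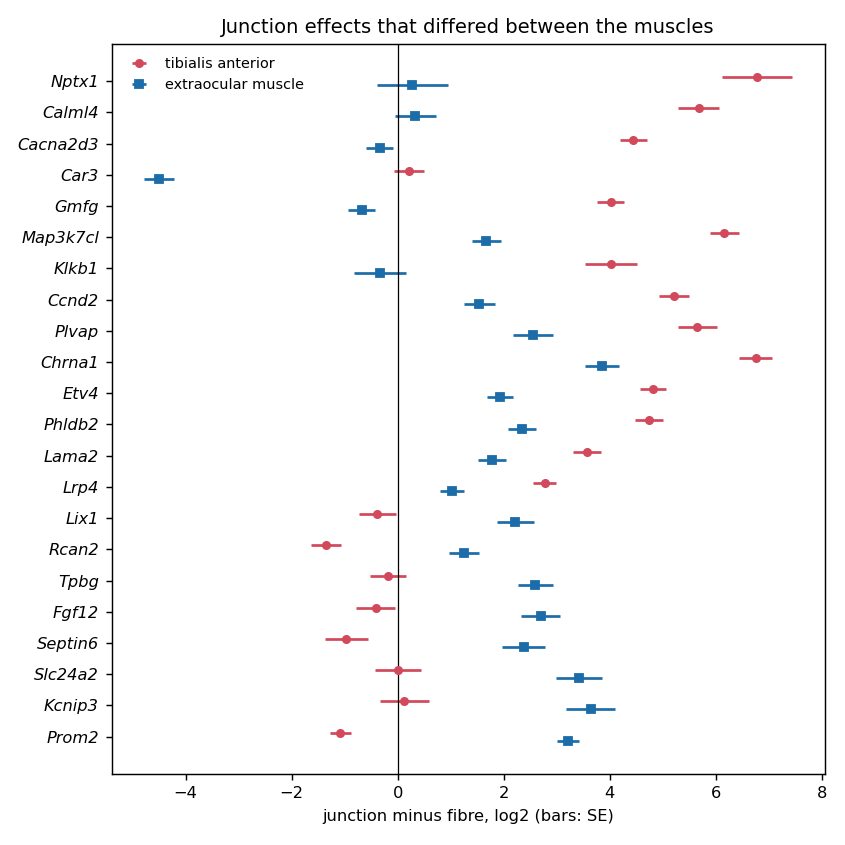
Junction minus fibre on the log2 scale in tibialis anterior (red circles) and extraocular muscle (blue squares) for 22 of the 24 named genes whose junction effect differed between the muscles, with bars of 1 SE. Gad1 and Nek6, chosen after their values were seen, are not drawn. Genes at the top had the higher effect in TA (Nptx1 6.77 against 0.27) and those at the bottom the lower (Prom2 -1.08 against 3.21).

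The promoter letters of the genes that moved can be set beside those of all genes tested. Of 8701 tested genes with a RefSeq promoter, 28.3% held CCGGAA on either strand and 62.7% held CANNTG. Among 539 genes that rose at the TA junction, 18.7% held CCGGAA and 60.5% CANNTG, and among 309 that fell, 20.1% and 68.9%. Among 7853 not called the shares were 29.3% and 62.6%. For 126 genes that rose by more than 2 log2 units, the shares were 9.52% and 72.2%. That is 12 genes with the core, Chrne and Chrnd among them. These shares describe windows of 300 bases, are not tested, and say nothing about which factor binds.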

How the data were processed

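The intensities analysed are the authors' processed values, 1 per probe set and array, as deposited by the authors. How probes were combined into 1 value was not given in the sources used here. A trimmed mean of the deposited intensities, 150.06 to 150.08 on the 16 arrays, shows that each array had been scaled to a common level. Of 31099 probe sets, 20826 carried 1 gene name, 436 several and 9780 none, and 57 control probe sets were left out. Names were updated through RefSeq GRCr8. Values became log2(intensity + 16) and were quantile-normalized. Probe sets above the array median on at least 4 of 16 arrays were kept, and each gene was represented by its probe set of highest mean, which left 10416 genes. A gene could thus pass the filter through 1 group of 4 arrays alone. A dim group pulled towards the floor of 4 understates a fold change.

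limma 3.58.1 in R 4.3.3 fitted all 16 arrays with a mean for each of the 4 groups and a block for each rat (residual df 9, prior df 4.58). p-values were adjusted by Benjamini-Hochberg over all genes, with a threshold of 0.05. The number in each title was read as the animal, an assumption, since the design text names 4 rats and TA muscles of all of them, and the titles hold 4 numbers. Over 24 same-rat pairs the mean correlation of deviations from the group means was 0.112 (-0.0666 to 0.245), with 16 over 0.1. It was 0.13 to 0.245 over the 4 TA pairs and -0.0374 between different rats. Deviations from a group mean cancel over its rats, so the value between different rats largely follows from the same-rat value. It adds no support of its own. p-values measure the spread left among all 16 arrays once the group means and the rat block are removed, and they cover these 4 rats only. The fits were tested on simulated data with known changes.

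The genes given with values are the 15 largest rises and 15 largest falls with 1 sign in all 4 rats, the 8 highest and 8 lowest differences between muscles, up to 5 called genes of each list and a fixed set of synaptic and contractile genes. Exceptions are marked as named after their values were seen. The members and gene lists were chosen with earlier results of these data known. Alternatives were the block left out or random, the 8 TA arrays alone, deposited or median-centred scaling, other pseudocounts, filters, probe set rules and priors, a minimum difference of 1, and each array and rat left out. Figures were drawn with matplotlib 3.10.9 in Python 3.11.15.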

Additional observations from a re-analysis of the deposited data

Results flagged for a closer look

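In 15 of 240 groups of 4 TA values, 1 rat lay apart from the others by more than Dixon's critical value, and chance gives about 1 group in 20. Rat 25 stood low in TA_fiber for Ccnd1 (4.43, nearest 7.09), Cox7a1 (5.37, nearest 8.22), G0s2 (10.73, nearest 12.06) and Kcnj12 (5.47, nearest 7.01), on the array that also stands apart as a whole. It was low in TA_synapse for Ccnd1 (8.43, nearest 9.11) and Map3k7cl (12.24, nearest 12.79). Rat 27 stood high in TA_synapse, the other array that stands apart, for Ankrd2 (8.75, nearest 7.47) and Ppargc1a (9.09, nearest 8.14). In TA_fiber it was high for Plvap (5.96, nearest 5.04) and low for Gja3 (7.25, nearest 8.32). Rat 15 was high in TA_synapse for Chrnd (9.21, nearest 8.49), high in TA_fiber for Etv4 (5.09, nearest 4.15) and low there for Mbp (4.38, nearest 6.41). Rat 29 was low in TA_synapse for Hadh (9.32, nearest 9.74) and high in TA_fiber for Matn2 (5.45, nearest 4.48). All are log2(intensity + 16).

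For 24 named genes the junction effect differed between the muscles in limma's test of the difference, adjusted over all genes. TA minus EOM was above 0 for Nptx1 (6.5), Calml4 (5.34), Cacna2d3 (4.78), Car3 (4.72), Gmfg (4.69), Map3k7cl (4.49), Klkb1 (4.35), Ccnd2 (3.67), Plvap (3.1), Chrna1 (2.89), Etv4 (2.88), Nek6 (2.53), Gad1 (2.44), Phldb2 (2.38), Lama2 (1.78) and Lrp4 (1.75). It was below 0 for Prom2 (-4.29), Kcnip3 (-3.51), Slc24a2 (-3.41), Septin6 (-3.34), Fgf12 (-3.11), Tpbg (-2.78), Rcan2 (-2.6) and Lix1 (-2.6). The calls of Gad1 and Nek6, both chosen after their values were seen, were lost in 16 of 32 and 16 of 33 settings. Gad1 lay above the array median on 4 TA_synapse and 0 TA_fiber arrays and was not tested with the filter at 8 arrays. Phldb2 was lost without rat 15, 27 or 29 (adjusted p = 0.0502 to 0.0917), and Plvap without rat 15, 25 or 27 (adjusted p = 0.0911 to 0.119) and without TA_fiber 25 and TA_synapse 27. Etv4 was lost with a pseudocount of 1 and with the filter at 8 arrays.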

How the results depend on the processing

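Of 92 named genes that limma called, 58 lost no call when 1 TA array or rat was left out, and 11 to 27 lost theirs in any such fit. Without the replicate block 903 genes were called, 618 higher and 285 lower, and 73 differed between muscles, with 12 of the 92 calls lost. Only the 8 TA arrays gave 606 calls (444 higher, 162 lower). With the filter at 8 arrays, 87 of the 92 were tested and 0 lost their call. Alas2, LOC100909739, Pdgfrb, Slc8a3 and Utrn were not tested there, since too few of their arrays lay above the median. A minimum log2 difference of 1 gave 134 (132 higher, 2 lower) and 11 between muscles, with 57 of the 92 lost, since it asks for more than a nonzero change. All non-control probe sets gave 232 lower and 61 between muscles. Without TA_fiber 25 and TA_synapse 27 there were 696 calls, 204 lower, and 60 between muscles. The count between muscles was also 56 median-centred, 46 with a pseudocount of 1, 218 with 64 and 205 with a trended, robust prior. Where a cause is not given, the cause was not tested. Leaving out 1 TA array or rat gave 586 (without rat 27) to 915 calls (without TA_fiber 25), 468 to 608 higher and 118 to 337 lower. Without 1 EOM array there were 985 (without EOM_synapse 25 or 29) to 1202 calls (without EOM_fiber 15). With any array or rat left out, 25 (without rat 27) to 99 genes differed between muscles. The share of calls that were higher was 65.5%, 63.6% as deposited and 68.8% median-centred.

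Signs turned only for genes that limma did not call. Gabpa became 0.11 as deposited, 0.076 median-centred, 0.014 with a pseudocount of 64, 0.016, 0.11 and 0.16 without TA_fiber 15, 27 and 29, 0.30 without TA_synapse 27, 0.31 and 0.035 without rats 27 and 29, and 0.0028 without TA_fiber 25 and TA_synapse 27, and its leave-outs ran from -0.3127 (without rat 25) to 0.3109. Myh4 became -0.35 as deposited and -0.39 median-centred. Chrng became 0.044 and 0.076 without TA_synapse 15 and 27 and 0.21 without the pair of arrays, and Rapsn 0.051 without rat 25. The leave-outs of Chrng ran from -0.3971 (without TA_synapse 25) and those of Rapsn from -0.4688 (without rat 27).

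The limits are 4 rats, captures that hold several cell types, RNA amplified in a pair of rounds, and a floor of 4 that leaves dim genes such as Musk and most axon markers unmeasured. Intensities carry no count, so precision rests on the spread left between arrays after the group means and the rat block.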

Other observations

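Several genes outside the lists, all chosen after their values were seen, moved with the TA junction in limma's test adjusted over all genes. Nog, the BMP inhibitor noggin, was at 10.69 ± 0.16 (SD, n = 4) against 6.12 ± 0.21 in fibre (difference 4.57 ± 0.34, limma adjusted p = 9.45e-07; EOM 3.85). Sema3e, a semaphorin that guides axons and vessels, was at 8.9 ± 0.56 (SD, n = 4) against 4.77 ± 0.85 (difference 4.13 ± 0.27, adjusted p = 3.38e-07, EOM 3.65). Thbs4, thrombospondin 4 of tendon and synapse, was at 9.28 ± 0.51 (SD, n = 4) against 6.28 ± 1.23 (difference 3.0 ± 0.44, adjusted p = 0.000562, EOM 0.49). The glial and axonal genes Scn7a, Chl1 and Reln, a sodium channel, an adhesion molecule and the matrix protein reelin, differed by 4.06, 2.45 and 2.36 in TA (adjusted p = 2.34e-06, 6.06e-05 and 0.000436). Pou3f1, the Schwann cell transcription factor Oct6, differed by 3.37 ± 0.29. Nes, the intermediate filament nestin of junctional muscle, was at 10.39 ± 0.22 (SD, n = 4) against 5.91 ± 0.22 (difference 4.48 ± 0.25, adjusted p = 7.64e-08), and Col19a1, a minor collagen, at 9.08 ± 0.25 (SD, n = 4) against 4.9 ± 0.55 (difference 4.18 ± 0.36, adjusted p = 3.86e-06). Gad1, which makes GABA, differed by 3.08 ± 0.33 and the cyclin Ccnd1 by 2.51 ± 0.5 (adjusted p = 3.81e-05 and 0.00533). Except for Lifr below, the TA_synapse and TA_fiber values of the genes in these paragraphs did not overlap. Since the genes were chosen by their values, this adds no support to their calls. Over all genes tested, the groups were apart for 7.62% with the junction above and 5.61% with it below.

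Of the genes chosen in this way, 8 were lower at the TA junction. G0s2, an inhibitor of triglyceride lipase, was at 10.11 ± 0.45 (SD, n = 4) against 11.73 ± 0.67 (difference -1.62 ± 0.25, limma adjusted p = 0.000907, EOM -0.13). Dgat2, which makes triglyceride, differed by -1.44 ± 0.27 and Smpx, a small cytoskeletal protein of striated muscle, by -1.69 ± 0.25 (adjusted p = 0.00351 and 0.000665). Fndc5, the precursor of irisin, differed by -1.37 ± 0.27 and the small GTPase Rhou by -1.74 ± 0.3 (adjusted p = 0.00494 and 0.00212). The signals Wnt4 and Nrtn, the latter a ligand of the GDNF family, differed by -1.71 ± 0.37 and -1.36 ± 0.27 (adjusted p = 0.00857 and 0.0053), and the cytokine receptor Lifr by -1.28 ± 0.33 (adjusted p = 0.0234). Calls were lost for Wnt4 without rat 27 (adjusted p = 0.0582), Dgat2 without rat 27 or 29 (adjusted p = 0.0539 to 0.0545), Fndc5 without rat 29 (adjusted p = 0.0565), Lifr without TA_fiber 15, 25 or 29, TA_synapse 15, 27 or 29 or rat 15 or 29 (adjusted p = 0.0534 to 0.127) and Nrtn without rat 15 (adjusted p = 0.0534).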
